A study of Homo sapiens with 4 samples.

Results

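PAWR encodes prostate apoptosis response-4 (Par-4), a leucine zipper protein that favours cell death, and its poly(A) site clusters (PACs) were described in 2 established lines of esophageal squamous cell carcinoma (ESCC), KYSE30 and TE-1. A PAC was taken as a PAWR member when its dominant site, the position with the most tags, lay on the same strand within the GENCODE 44 span of the gene. This rule found 5 PACs of the 17627 PACs listed over the 4 libraries, and 4 of the 5 lay in the 3′ UTR. PAWR had been selected on measured values, namely a dominant site that lay farther downstream with l-lactate in both lines. The positions and shares of its sites with l-lactate and without it are therefore given as a description, with no test.

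In each line, 1 library came from cells that received 20 mM l-lactate over 24 h and 1 from controls that received PBS, so the groups were KYSE30 with l-lactate, KYSE30 control, TE-1 with l-lactate and TE-1 control. PAS-seq reads the 3′ ends of polyadenylated RNA, and each tag is taken to mark where a transcript was cleaved. The question behind the experiment was whether lactate, the end product of glycolysis, alters alternative polyadenylation. With 1 library per group there was no spread between replicates for the effect of l-lactate, and intervals on single libraries cover counting error only.

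Depth lay between 7174991 and 10393799 tags per library, and levels are given as TPM, here RPM, the tags of a PAC relative to all tags in its library, with no correction for length. In the cell line field of their labels the controls carry other names, KYSE32 and TE-3, whereas their titles and the methods give KYSE30 and TE-1. Each control listed the same markers as the l-lactate library of the same line by title, except CDH1, listed in TE-1 with l-lactate only (1.30 TPM). Levels could differ, as for the keratin KRT6A, at 40.4 TPM in KYSE30 with l-lactate and 20.3 TPM in its control. EPCAM, an epithelial adhesion molecule, was at 635 and 563 TPM in the KYSE30 libraries (l-lactate, then control) and at 36.4 and 30.7 TPM in the TE-1 libraries. Of 9 epithelial and squamous markers, 7 were listed in at least 1 library. KRT5 and KRT14, the keratins of basal squamous cells, were listed in none of the 4, and TP63 and SOX2, squamous lineage factors, and KRT6A only in KYSE30. KRT17, another keratin, went the other way, with 187 and 245 TPM in TE-1 and no listing in KYSE30. The summed level of the 9 markers was 1457 and 1293 TPM in KYSE30 and 430 and 504 TPM in TE-1. Of 4 fibroblast markers, COL1A1, PDGFRB and DCN were listed in TE-1, with sums of 15.4 and 16.6 TPM, and none was listed in KYSE30. Leukocyte and endothelial markers were listed in no library. In bulk RNA, fewer cells of a type and less RNA per cell cannot be told apart.

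Cleavage and polyadenylation is set by the AAUAAA signal, which the CPSF complex reads a short way upstream of the cut. CFIm, the complex of NUDT21 with CPSF6 or CPSF7, binds UGUA further upstream and favours the sites that carry it. Where a 3′ UTR holds several sites, the choice among them leaves the protein sequence unchanged and alters how much regulatory sequence the mRNA carries. Par-4 binds atypical protein kinase C, WT1 and the death-associated kinase DAPK3, enters the nucleus to promote apoptosis, can act at the cell surface through HSPA5, and is held in check by AKT1.

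PAWR (ENSG00000177425.11) lies on the minus strand of chromosome 12 at chr12:79574979-79690964 (GRCh38). The 3′ UTR of its main coding transcript, PAWR-201, is part of exon 7 of 7 and runs for 7728 nt after the stop codon (chr12:79584879-79592606). PAC1, the most proximal, spans 530 nt (chr12:79591966-79592495), and PAC2 also spans 530 nt (chr12:79589335-79589864). PAC3 spans 8 nt (chr12:79587792-79587799). PAC4 is a single position, 79584879, which is the annotated end of PAWR-201. The fifth PAC is a single position, 79688352, in intron 2, 1377 nt into an intron of 68521 nt and 2612 nt after the start of the gene. This position lay 20 nt past the annotated end of PAWR-202, a short transcript with no defined coding sequence. Of 10335 genes with a 3′ UTR PAC, 153 had 4 or more (1.48%).

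The dominant sites were at 7 positions, since PAC1 had a different dominant site in several libraries. The 30 nt that end at each of the 7 positions are shown because they carry the poly(A) signals. They are read from GRCh38 on the minus strand, 5′ to 3′, and capitals mark the AAUAAA signal, written with T for U, or the variant taken for it where it was absent.
PAC1, site 112 nt after the stop codon (chr12:79592495-79592524): ctgcaatacATTAAAataactaagcaagta
PAC1, site 461 nt after the stop codon (chr12:79592146-79592175): ctcactCATAAAggtttttgtctactgtca
PAC1, site 641 nt after the stop codon (chr12:79591966-79591995): gtaAATAAAaatttactattttgtgtttga
PAC2, site 2817 nt after the stop codon (chr12:79589790-79589819): tgtggcatAATAAAgcacattcaaagttct
PAC3, site 4815 nt after the stop codon (chr12:79587792-79587821): ctcAATAAAatttttttcatttatttttca
PAC4, site 7728 nt after the stop codon (chr12:79584879-79584908): ggaaaaAATAAAtgtatgtttcatcagtta
Intronic PAC (chr12:79688352-79688381): tgatccaAATAAAagaatttgtcattttca

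AAUAAA was found in the 50 nt upstream of 5 of the 7 positions, ending 16 to 21 nt before the cut. It was present in that window at 66.4% of all 17621 PACs with sequence. These and the shares below count a single site per PAC, whereas PAC1 gives 3 of the 7 positions. The site at 112 nt had AUUAAA instead, ending 15 nt before the cut, a variant present at 19.8% of PACs. The site at 461 nt had neither and carried CAUAAA, ending 18 nt before the cut. Either of the 2 main signals was present at 83.1% of PACs, and AAUAAA or any of its 18 single-base variants at 96.5%. Within PAC1, the only site with AAUAAA was thus the most distal of the 3, at 641 nt. This site was also the only one of the 7 followed by A-rich genomic sequence, with 7 A in 10 nt within the next 20 nt, a feature of 3.27% of PACs. Such sequence can prime reverse transcription inside an RNA, and its part in the tags at 641 nt was not tested. Downstream of the cut, where CstF reads U-rich or GU-rich RNA, the next 20 nt held 8 to 15 G or U over the 7 positions. PAC3 and PAC4 had the most, 15 each, and the site at 641 nt the fewest, 8.

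UGUA was searched on the transcribed strand in the 100 nt upstream of each site. It was found at PAC3 and PAC4 and at none of the other 5 positions, 3 of which belong to PAC1. Of all PACs, with a single site counted for each, 57.0% held it. The 2 matches are shown with the motif in capitals and T for U, since UGUA is the motif that CFIm binds.
PAC3 (chr12:79587819-79587848): ctttcaatttgcaTGTAtaaagtaatactc
PAC4 (chr12:79584880-79584909): tggaaaaaataaaTGTAtgtttcatcagtt
The match ended 40 nt before the PAC3 site and 14 nt before the PAC4 site, where it directly follows the AAUAAA signal. A match is a run of letters and not a measured binding site.

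The whole 3′ UTR was A and U rich, with a G+C content of 32.8%, and held 14 AAUAAA and 12 AUUAAA. Of these, 4 AAUAAA and 1 AUUAAA lay in the window upstream of a dominant site. The first 641 nt held no UGUA, and the stretches that follow, up to PAC2, PAC3 and PAC4, held 15, 18 and 18. AUUUA, the core of AU-rich elements that recruit decay and stability factors, occurred 28 times. None lay in the first 112 nt, 1 lay between the sites at 112 and 461 nt, 3 in the 180 nt up to 641 nt, and 7, 11 and 6 in the later stretches. An mRNA that ends at 112, 461 or 641 nt thus carries 0, 1 or 4 AUUUA in its 3′ UTR.

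The level of PAWR with l-lactate was close to that in the control in both lines. In KYSE30 its 4 3′ UTR PACs summed to 67.0 TPM after l-lactate (481 tags, Poisson 95% interval 61.2 to 73.3) against 63.3 TPM in the control (470 tags, 57.7 to 69.3). In TE-1 the sum was 74.4 TPM after l-lactate (630 tags, 68.7 to 80.4) against 72.5 TPM in the control (754 tags, 67.5 to 77.9). In order of level these were TE-1 with l-lactate, the TE-1 control, KYSE30 with l-lactate and the KYSE30 control, and the intervals of all neighbours in this order overlap. The ratio of l-lactate to control was 1.06 in KYSE30 (exact conditional interval 0.931 to 1.21) and 1.03 in TE-1 (0.921 to 1.14). Against this, 2.12% of 9361 genes in KYSE30 and 2.6% of 9163 in TE-1 were at least 1.5-fold higher with l-lactate, and PAWR was among neither. Tags are taken to come from the 3′ ends of transcripts, so levels can be set beside those of other genes without length. PAWR lay above 74.9% to 78.8% of genes with a PAC in the 4 libraries.

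The intronic PAC was listed in TE-1 only. It was at 5.08 TPM with l-lactate (43 tags) and 4.71 TPM in the control (49 tags), or 6.39% and 6.10% of all PAWR tags. The ratio between these libraries was 1.08 (0.698 to 1.66). In KYSE30 it was not listed, and a PAC of a single site was listed from about 3 TPM, so its level there was below about 22 tags after l-lactate and below about 23 in the control.

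PAC2 was the largest PAC of PAWR in all 4 libraries. It was at 24.7 TPM in KYSE30 with l-lactate, 26.1 TPM in the KYSE30 control, 29.9 TPM in TE-1 with l-lactate and 32.0 TPM in the TE-1 control. It held 36.8% to 44.2% of the 3′ UTR tags. Its dominant site, 2 nt past the annotated end of PAWR-207, was the same in all libraries and held 29.4% to 37.9% of its tags, so most of its tags lay at other positions. The tags reached 10% at position 79589784 in all 4 libraries and 90% at 79589861 in 3 of them (79589864 in the TE-1 control), so although PAC2 spans 530 nt, most of its tags fell near its stop codon side. The levels were ordered by line, with both TE-1 libraries above both KYSE30 libraries, and in each line the Poisson intervals of l-lactate and control overlap.

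**Figure D1:**
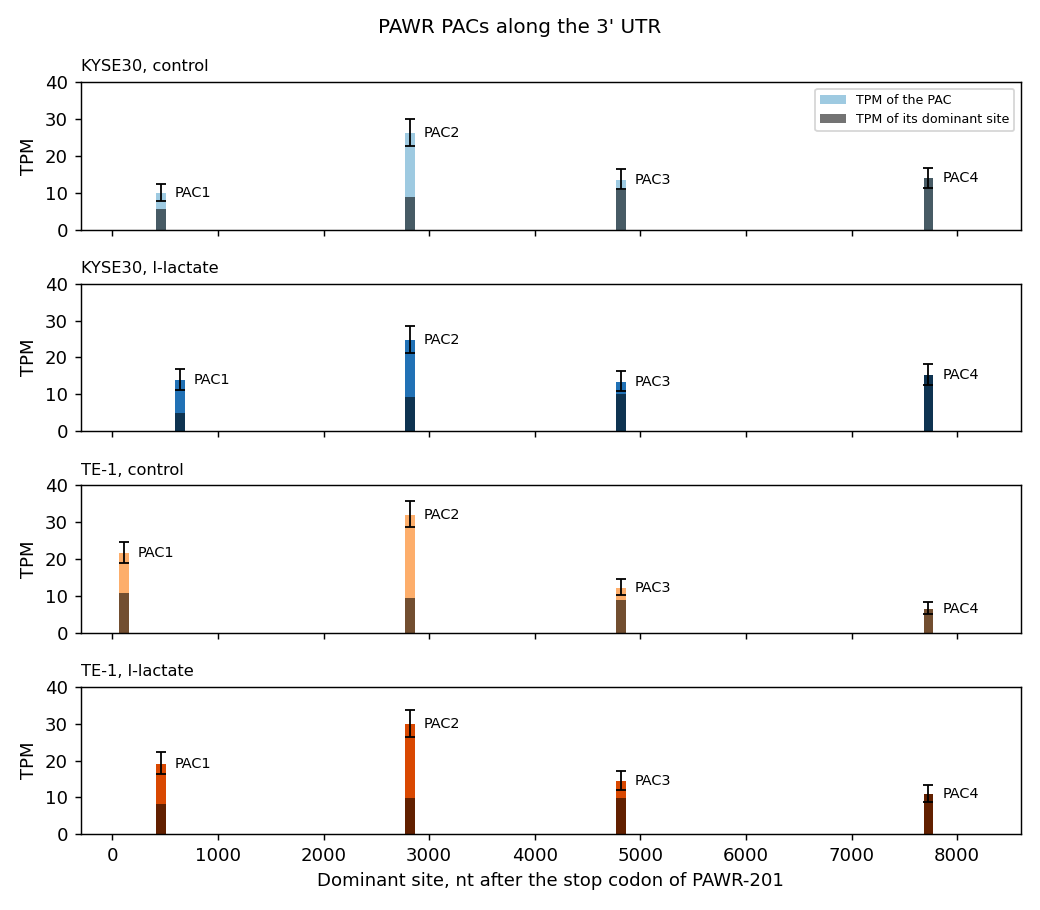
TPM of each 3′ UTR PAC of PAWR (y axis) at the distance of its dominant site from the stop codon in nt (x axis), with a panel for each library, pale or coloured bars for the PAC, dark bars for its dominant site, and error bars for the Poisson 95% interval. PAC2 is the tallest in all 4 panels, PAC1 sits at 461 or 641 nt in KYSE30 and at 112 or 461 nt in TE-1, and PAC4 falls to 6.54 TPM in the TE-1 control.

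PAC1, which ends the shortest 3′ UTRs, was at 13.8 TPM in KYSE30 with l-lactate (99 tags, 11.2 to 16.8) and 9.83 TPM in the KYSE30 control (73 tags, 7.71 to 12.4). It was at 19.1 TPM in TE-1 with l-lactate (162 tags, 16.3 to 22.3) and 21.7 TPM in the TE-1 control (226 tags, 19.0 to 24.8). PAC1 was thus higher with l-lactate in KYSE30 and lower with l-lactate in TE-1. The ratio of l-lactate to control was 1.40 in KYSE30 (1.03 to 1.93) and 0.880 in TE-1 (0.715 to 1.08). In KYSE30 it held 20.6% of the 3′ UTR tags with l-lactate against 15.5% without, a difference of 5.05 percentage points (Newcombe interval 0.151 to 9.92). In TE-1 it was 25.7% and 29.97%, a difference of -4.26 points (-8.94 to 0.497).

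PAC4, which ends the full-length 3′ UTR, had a higher level with l-lactate than in the control in TE-1, whereas its intervals overlap in KYSE30. In KYSE30 it was at 15.2 TPM after l-lactate (109 tags, 12.5 to 18.3) against 13.9 TPM in the control (103 tags, 11.3 to 16.8). In TE-1 it was at 10.98 TPM with l-lactate (93 tags, 8.86 to 13.5) and 6.54 TPM in the control (68 tags, 5.08 to 8.29). The TE-1 control was the lowest of the 4 libraries, and its interval does not overlap those of the other libraries. The ratio of l-lactate to control was 1.68 in TE-1 (1.21 to 2.33) and 1.10 in KYSE30 (0.829 to 1.45). The share of PAC4 was 22.7% and 21.9% in KYSE30, a difference of 0.746 points (-4.55 to 6.03), and 14.8% and 9.02% in TE-1, a difference of 5.74 points (2.33 to 9.25).

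A gain of at least 10 points in the share of the most distal 3′ UTR PAC with l-lactate was seen in 3.37% of 1721 genes in KYSE30 and in 6.2% of 1743 genes in TE-1. PAWR was in neither group. Computed from the TPM as listed, like all these genes, its 0.747 points in KYSE30 lay above 65.0% of these genes, whose median was -0.562, and its 5.74 points in TE-1 lay above 83.2%, with a median of 0.267. With the 2 most distal PACs, PAC3 and PAC4, summed, the change was -0.571 points in KYSE30 and 8.27 points in TE-1, so the direction in KYSE30 depends on this choice. Both are descriptions, since PAWR was chosen for its response to l-lactate.

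PAC3 was at 13.4 and 13.5 TPM in KYSE30 and at 14.4 and 12.2 TPM in TE-1, with l-lactate first. Its share lay between 16.8% and 21.3% over the 4 libraries. Its dominant site was the same in all 4 and held 68.9% to 79.0% of its tags, so the tags of PAC3 were mostly at a single position. It lay 2000 nt from the nearest annotated transcript end. Its ratio of l-lactate to control was 0.994 in KYSE30 (0.743 to 1.33) and 1.18 in TE-1 (0.912 to 1.52).

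**Figure D2:**
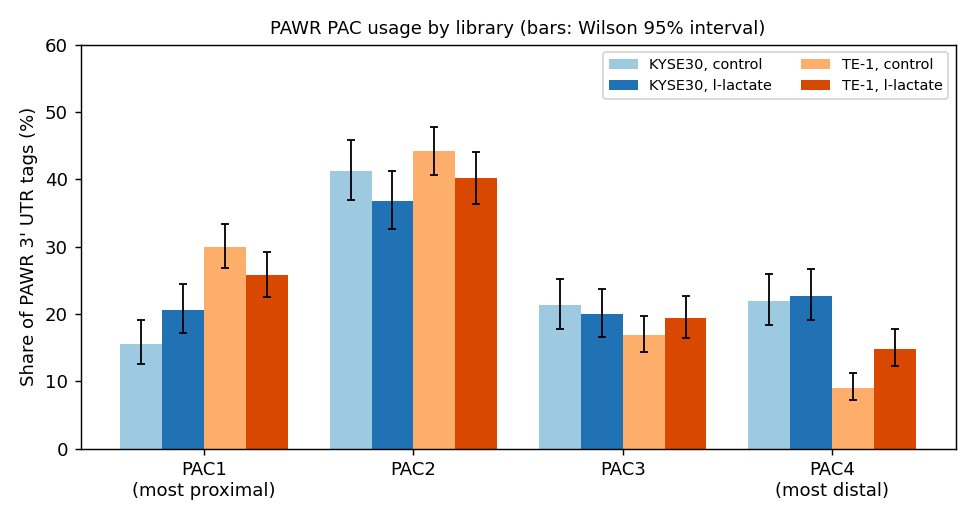
Share of the PAWR 3′ UTR tags in each PAC (y axis, percent) for PAC1 to PAC4 (x axis), with a bar for each of the 4 libraries and Wilson 95% intervals as error bars. PAC1 is lower and PAC4 higher in both KYSE30 libraries than in both TE-1 libraries, and the TE-1 control has the lowest PAC4 share, 9.02%.

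Weighted by tags over the 4 PACs, at positions held the same in all libraries, the mean 3′ UTR length of PAWR mRNA was 3772 nt in KYSE30 with l-lactate against 3898 nt in its control. In TE-1 it was 3233 nt and 2786 nt. By this measure the mean length was lower with l-lactate in KYSE30 and higher with l-lactate in TE-1. Taking the dominant site of each library for PAC1 gave 3881 and 3952 nt in KYSE30 and 3323 and 2786 nt in TE-1, with the same directions. No error was computed for these means. The 180 nt by which the dominant site of PAC1 lay farther downstream in KYSE30 thus coexisted with more tags in PAC1 as a whole.

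PAC1 was the only PAC of PAWR whose dominant site was not the same in every library that listed it. The dominant site was at 641 nt in KYSE30 with l-lactate, where it held 35 of 99 tags (35.4%, Wilson interval 26.6% to 45.2%). In the KYSE30 control it was at 461 nt, with 41 of 73 tags (56.2%, 44.8% to 67.0%). In TE-1 with l-lactate it was also at 461 nt, with 70 of 162 tags (43.2%, 35.8% to 50.9%). In the TE-1 control it was at 112 nt, with 112 of 226 tags (49.6%, 43.1% to 56.0%). With l-lactate the dominant site therefore lay farther downstream by 180 nt in KYSE30 and by 349 nt in TE-1. In KYSE30 with l-lactate, either the site at 112 nt or that at 461 nt could hold up to 35.4% as well. The shift in KYSE30 rests on the site at 641 nt, which A-rich genomic sequence follows, and the part of this sequence was not tested. Downstream shifts past 24 nt were seen in 0.802% of 10849 PACs in KYSE30 and 0.734% of 10769 in TE-1, and the choice of PAWR used these shifts.

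PACs with 3 dominant sites were uncommon. Of 8909 PACs with TPM above 5 in all 4 libraries, 8629 kept a single dominant site within 24 nt, 277 had 2 and 3 had 3 or more, PAC1 of PAWR among them. The choice of PAWR used these positions, so a change of dominant site in PAC1 was fixed beforehand. The site at 461 nt was the dominant site of both the KYSE30 control and the TE-1 library with l-lactate, so the same site lay upstream in the comparison within KYSE30 and downstream in that within TE-1.

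The files give the tags of the dominant site alone, but they bound the others. In all 4 libraries the positions at which the tags reach 10% and 90% were the outer ends of PAC1, so the sites at 112 and 641 nt each held at least 10% of its tags. None of the 3 sites can hold more than the dominant site. In KYSE30 the site at 461 nt, the dominant site of the control, was at most 35.4% with l-lactate, a change of -56.2 to -20.8 percentage points. The site at 641 nt was 10% to 33.8% in the control, so it was 1.52 to 25.4 points higher with l-lactate. The site at 112 nt could have moved either way, by -23.8 to 25.4 points.

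In TE-1 the site at 112 nt was at most 43.2% with l-lactate against 49.6% in the control, a change of -39.6 to -6.35 points. The site at 461 nt was at most 40.4% in the control, so it was 2.77 to 43.2 points higher with l-lactate. The site at 641 nt could have moved either way, by -39.6 to 33.2 points. These ranges follow from the tag numbers and leave out counting error, which is wider than the smallest changes they allow. Because both end sites stayed above 10%, the 10% and 90% positions did not move between l-lactate and control in either line.

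**Figure D3:**
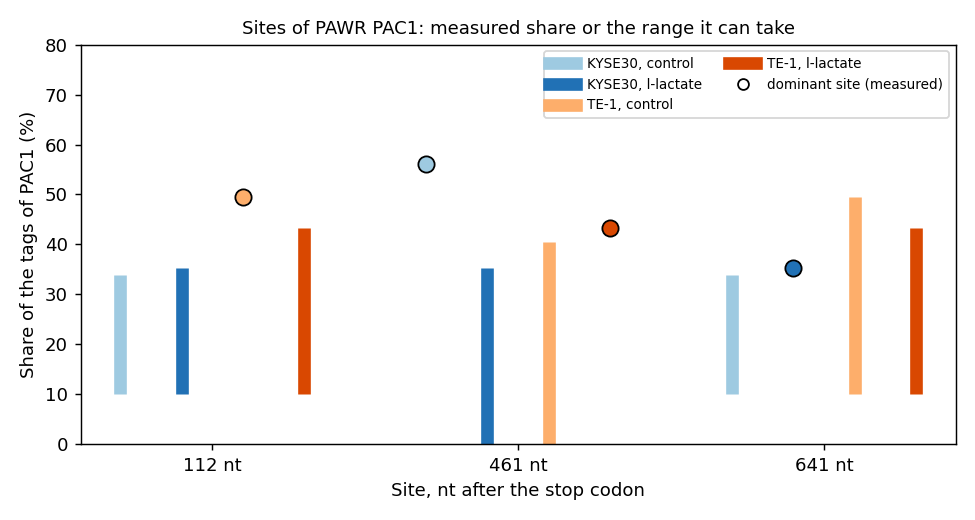
Share of the PAC1 tags (y axis, percent) at its sites 112, 461 and 641 nt after the stop codon (x axis), with an outlined circle where the site was dominant and its share is known, and a vertical bar for the range the share can take where it was not. The circles lie between 35.4% and 56.2%, at 112 nt for the TE-1 control, at 461 nt for the KYSE30 control and TE-1 with l-lactate, and at 641 nt for KYSE30 with l-lactate.

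The choice of PAWR did not use the difference between the lines, so this could be tested. Each line had 2 libraries, which differ in treatment and are not replicate cultures. The fit held a treatment term and assumed the same effect of l-lactate in both lines. The spread left was the difference between the lines in their change with l-lactate, moderated over all genes or PACs by limma. The p-values thus measure no spread between replicate cultures. Between the lines most features differed: 74.5% of 9937 genes passed an adjusted p of 0.05, 37.6% higher in KYSE30 and 37% higher in TE-1. The same held for 72.5% of 12854 PACs by level and 44.6% of 4783 PACs by usage, the level of a PAC relative to the other PACs of its gene. Each PAWR call is to be read against these shares. The epithelial and fibroblast markers given above also differed between the lines, and their part in the PAWR values was not tested.

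PAWR as a whole differed little. Its mean log2(TPM + 1) was 6.05 in KYSE30 and 6.31 in TE-1, a difference of -0.26 (SE 0.09, adjusted p = 0.0214, limma with Benjamini-Hochberg adjustment). This call rested on the intronic PAC, which was taken as 0 in KYSE30, where a level under about 3 TPM would not have been listed. With only 3′ UTR PACs counted the difference was -0.17 and the adjusted p was 0.109. It held without the treatment term (limma adjusted p = 0.0278), and it was lost when, without that term, any 1 of the 4 libraries was also left out, with differences from -0.30 to -0.22. With 3 libraries and the term, no residual degree of freedom remains.

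The proximal and distal ends of the 3′ UTR differed in opposite directions. PAC1 was lower in KYSE30, by -0.76 on the log2(TPM + 1) scale (SE 0.19, limma adjusted p = 0.0104), and both KYSE30 libraries lay below both TE-1 libraries. PAC4 was higher in KYSE30, by 0.71 (SE 0.20, limma adjusted p = 0.0154), and both KYSE30 libraries lay above both TE-1 libraries. These orders are of the levels alone. For PAC1 and for PAC4, the Poisson intervals of KYSE30 with l-lactate and TE-1 with l-lactate overlap. For PAC4, those of the KYSE30 control and TE-1 with l-lactate overlap too, so only the TE-1 control stood apart from the KYSE30 libraries. Without the treatment term and without the TE-1 control, the PAC4 difference was 0.37. PAC2, at -0.28 (SE 0.12, limma adjusted p = 0.0679), and PAC3, at 0.02 (SE 0.16, limma adjusted p = 0.939), did not pass. The PAC4 level did not pass without the treatment term, with all 4 libraries fitted (limma adjusted p = 0.0677). Without the term and without any 1 of the 4 libraries, neither PAC1 (-0.98 to -0.53) nor PAC4 (0.37 to 1.04) passed by level.

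Usage gave the same picture. Relative to the other PACs of PAWR, PAC1 was used less in KYSE30 (-0.91, adjusted p = 0.0125, limma diffSplice) and PAC4 more (1.05, adjusted p = 0.00700, limma diffSplice). PAC2 (-0.26, limma adjusted p = 0.330) and PAC3 (0.12, limma adjusted p = 0.649) did not pass. Both usage calls held without the treatment term. With 1 library also left out, they held only without TE-1 with l-lactate (adjusted p = 0.0252 for PAC1 and 0.0156 for PAC4 by limma). Usage then ranged from -1.13 to -0.69 for PAC1 and from 0.70 to 1.39 for PAC4, and PAC4 usage was still 1.04 and 1.05 where a KYSE30 library was left out. With no filter on low values the intronic PAC, taken as 0 in KYSE30, enters the gene, and PAC1 usage was then -0.23 (limma adjusted p = 0.424).

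The ratio of PAC1 to PAC4 tags shows this contrast in single libraries. It was 0.709 in the KYSE30 control (interval 0.518 to 0.966) and 0.908 in KYSE30 with l-lactate (0.685 to 1.20). It was 1.74 in TE-1 with l-lactate (1.34 to 2.27) and 3.32 in the TE-1 control (2.52 to 4.43). The order ran from the KYSE30 control to the TE-1 control, with both l-lactate libraries between the controls. The 2 KYSE30 libraries have overlapping intervals, and the 2 TE-1 libraries do not.

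At matched treatment the dominant site of PAC1 was not the same in the lines, which is a description and was not tested. In the controls the difference of KYSE30 from TE-1 was -39.6 to -15.7 percentage points at the site at 112 nt and 15.7 to 56.2 points at the site at 461 nt. With l-lactate it was -43.2 to -7.86 points at the site at 461 nt. The other sites could differ either way. The range at 641 nt was -39.6 to 23.8 points in the controls. With l-lactate it was -33.2 to 25.4 points at 112 nt and -7.86 to 25.4 points at 641 nt. All these ranges leave out counting error.

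Genes that act with Par-4 were taken from a list of 32 genes, of which 25 were tested between the lines. Of these, 8 were higher in KYSE30, 9 were higher in TE-1 and 8 did not pass, against 37.6% and 37% of all genes. The 17 genes called were 16 without the treatment term and 8 to 10 when 1 library was also left out, and which of the calls below then held is not given. The median difference of the list was -0.20, beside 0.0056 over all genes, and its median size was 0.49, beside 0.69. The other 7, PRKACA, WT1, TRIM21, SPSB4, BCL2, BCL2L1 and NFKB1, had no PAC in the tables used here.

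Among the atypical PKC genes, PRKCI, which encodes PKC iota, was higher in TE-1 (-1.40, SE 0.24, limma adjusted p = 0.000559), as was SQSTM1, the scaffold that shares the PKC interaction domain (-0.39). PRKCZ, for PKC zeta, was at 0.11 and did not pass. Of the kinases, AKT1, which phosphorylates Par-4 and keeps it from the nucleus, was higher in TE-1 (-0.96), CSNK2A1, the casein kinase 2 catalytic subunit, was higher in KYSE30 (0.86), and DAPK3 was at -0.19 and did not pass.

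Of the binding partners, VIM, the intermediate filament vimentin, differed most of the whole list (-7.11, limma adjusted p = 1.63e-10), with 6.69 and 5.66 TPM in KYSE30 and 982 and 991 TPM in TE-1. UACA, which holds Par-4 in the cytoplasm, was higher in KYSE30 (1.82), and TOP1, topoisomerase I, was higher in TE-1 (-0.39). THAP1, at -0.34, and AATF, at -0.15, did not pass. FBXO45, the F-box protein that marks Par-4 for degradation, was higher in KYSE30 (0.36), CUL5, a cullin scaffold, was higher in TE-1 (-0.68), and the SOCS box proteins SPSB1 (0.06) and SPSB2 (-0.49) did not pass.

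In the cell death group, FADD (2.18), the adaptor of death receptors, and FAS (1.39), a death receptor, were higher in KYSE30. HSPA5, the chaperone that serves as the surface receptor of Par-4 (-0.99), and CASP9, the initiator caspase of the mitochondrial pathway (-0.82), were higher in TE-1. CASP8, at -0.39, and TNFRSF10B, at -0.20, did not pass. In the NF-kB group, NFKBIA (1.21), the inhibitor, and IKBKB (0.38), the kinase that removes it, were higher in KYSE30, and RELA was higher in TE-1 (-0.30).

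With l-lactate, PRKCI was the only list gene at least 1.5-fold higher in KYSE30, at 9.20 TPM against 3.10 TPM in the control, which is also the lowest TPM listed there for any single-site PAC. None was in TE-1, where FAS was closest, with 9.33 TPM against 6.25 TPM, a log2 ratio of 0.51 on the TPM + 1 scale. Over all genes the shares were 2.12% and 2.6%.

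**Figure D4:**
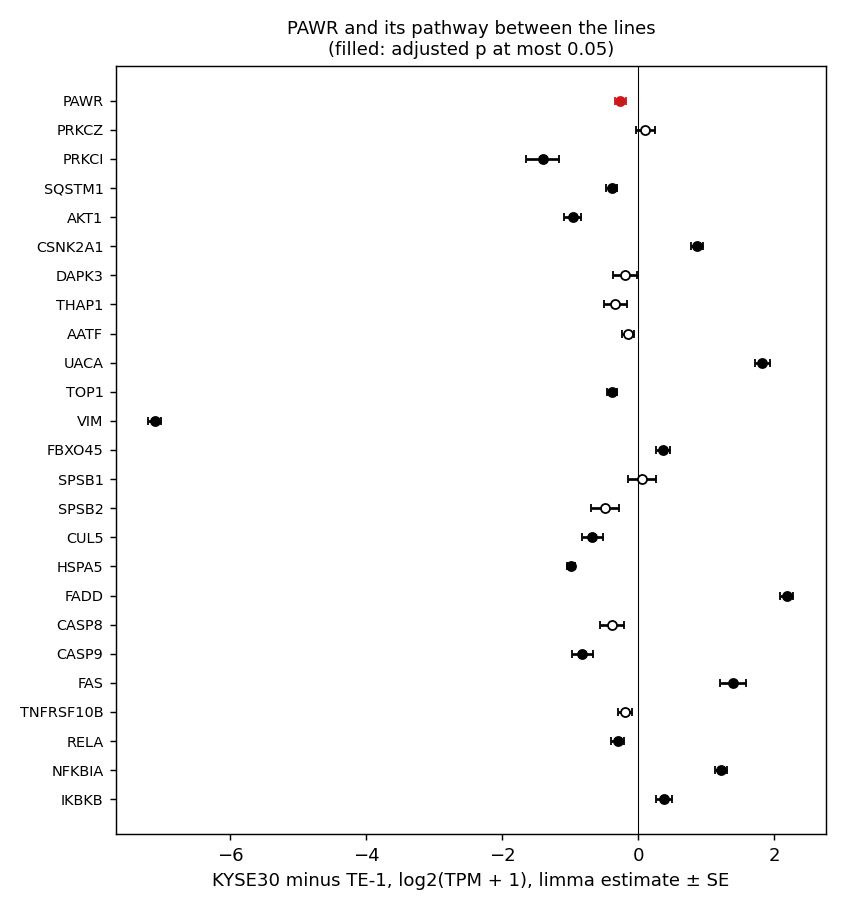
Difference between the lines in log2(TPM + 1), KYSE30 minus TE-1 (x axis), for PAWR (red) and 24 of the 25 tested genes of its pathway (y axis), as limma estimates with SE bars, filled where the adjusted p was at most 0.05. PAWR lies at -0.26, close to 0, and VIM at -7.11 is the farthest point.

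By the shares of their PACs from proximal to distal, the genes most like PAWR among 113 other genes with 4 3′ UTR PACs that together passed 5 TPM in every library were IPO5, CPD, RAD1, YIPF4 and ARHGAP5. Their mean absolute difference from PAWR over 4 PACs and 4 libraries was 7.07 percentage points for IPO5, 7.20 for CPD, 8.001 for RAD1, 10.1 for YIPF4 and 10.5 for ARHGAP5. Averaged over the libraries, PAWR had shares of 23.0%, 40.6%, 19.4% and 17.1% from PAC1 to PAC4, and IPO5 had 23.9%, 52.7%, 14.8% and 8.58%. By gene level over the 4 libraries, CCDC117 was nearest among 10406 genes, with a root mean square difference of 0.034 in log2(TPM + 1), followed by SNAPIN, UBAC2, ZNF410 and MCU, up to 0.057.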

How the data were processed

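Per the study's methods, PAS were called with CAGEr, sites under 1 TPM were dropped, sites no more than 24 nt apart formed a PAC, single-site PACs under 3 TPM were removed, and PACs above 5 TPM in all samples within 500 nt were joined, which is how PAC1 and PAC2 came to hold several sites. The deposited TPM values are RPM: the authors divided the tags of each PAC by the tags of the library. The submitters' processing notes name GRCh38.p14. Start positions were converted to count from 1.

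All TPM values were whole multiples of a step per library within the rounding of the files (tolerance 0.0011 TPM), which gave depths of 7174991, 7425554, 8468958 and 10393799 tags (KYSE30 with l-lactate and control, then TE-1). These were used for Wilson, Poisson, exact conditional and Newcombe intervals at 95%, and no count model was run. PACs were placed on GENCODE 44. A PAC not listed was taken as 0.

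The lines were compared with limma 3.58.1 in R 4.3.3 on log2(TPM + 1) with a treatment term, in genes or PACs with at least 5 TPM in at least 2 libraries, with diffSplice for usage. p-values were Benjamini-Hochberg adjusted over all genes or PACs. On simulated data for this comparison, 100 of 100 genes changed by 1 log2 unit and 100 of 100 changed by 2 were found. There were 16 false calls in the fit of 9479 genes. The simulation changed 200 genes, with a fixed dispersion and no effect of treatment. It held no change below 1 log2 unit, so it does not show how differences as small as those in PAWR levels are called. Other steps ran in Python 3.11.15 (pandas 2.3.3, NumPy 2.4.6, SciPy 1.17.1, matplotlib 3.10.9).

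PAWR, its pathway list, the markers and the rules for named genes (PAWR and its PACs, the list genes, and the 5 genes most like PAWR by each measure) were chosen with earlier results of these data known. For 1 list gene, which the counts include, the value is not reported here. The shifting score of the study was not used here, because tags per site are needed for it. Alternatives changed the filter, pseudocount, scaling, treatment term, PACs counted, position used in a PAC and libraries.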

Additional observations from a re-analysis of the deposited data

Results flagged for a closer look

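PAC1 and PAC3 of PAWR differed from control in opposite directions in the lines, with 1 library per condition, and the difference between the lines was not tested. The share of PAC1 with l-lactate minus control was 5.05 percentage points in KYSE30 and -4.26 in TE-1, and its log2 ratio on the TPM + 1 scale was 0.45 and -0.18. The share of PAC3 changed by -1.32 points in KYSE30 and 2.52 in TE-1, with log2 ratios of -0.0087 and 0.22. For PAC3 the counting intervals include no change in both lines. For PAC1 they do so in TE-1 only.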

How the results depend on the processing

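The 180 nt and 349 nt shifts of PAC1 became 0 in both lines with the upstream quantile position, the downstream quantile position or their midpoint in place of the dominant site, since the quantile positions are the ends of PAC1 in all 4 libraries. With only 3′ UTR PACs, an alternative added after the data were seen, the gene level difference between the lines was -0.17 (limma adjusted p = 0.109). With no filter, PAC usage was -0.23 for PAC1 (no longer past the test), 0.37 for PAC2 (reversed) and 0.74 for PAC3 (now past it). With quantile normalization the PAC2 level was -0.32 and passed, and with no treatment term the PAC4 level was 0.71 and did not. Leaving out 1 library at a time, also with no treatment term and with the lone library assumed to vary like the other line, gave gene levels of -0.30 to -0.22, PAC1 levels of -0.98 to -0.53, PAC2 levels of -0.32 to -0.23, PAC3 levels of -0.10 (reversed, without the TE-1 control) to 0.13 and PAC4 levels of 0.37 to 1.04. Usage ranged from -1.13 to -0.69 for PAC1 and from 0.70 to 1.39 for PAC4. The number of pathway genes called was 8 to 10 in place of 17, that of all genes 4564 to 4863 in place of 7407, that of PACs 5122 to 5548 in place of 9318, and that of PACs by usage 972 to 1199 in place of 2132. With 4 libraries and no treatment term these counts were 16, 6945, 8509 and 1779, so leaving out a library and dropping the term both lowered them. With a minimum of 10 TPM, which tests fewer PACs, 1414 PACs were called by usage. The cause of the other changes was not tested. With the 2 most distal PACs together, the change in distal usage with l-lactate was -0.571 percentage points in KYSE30 and 8.27 in TE-1. The treatment term of the main comparison pairs the lines within each treatment. The labels give no replicate numbers for another block. With 68 to 226 tags in PAC1 or PAC4, counting intervals on changes in share were wide. They ran from 0.151 to 9.92 percentage points for PAC1 in KYSE30 and from 2.33 to 9.25 for PAC4 in TE-1. For PAC1 in TE-1 and PAC4 in KYSE30 they included no change.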
